A study of Mus musculus with 10 samples.

Results

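The genes examined here carry iron across the epithelium of the small intestine, store it or control its handling. They are 10 genes chosen by name, and all 10 were matched by symbol to 1 of the 35275 Ensembl gene IDs that the authors counted. They take iron in (*Cybrd1*, *Slc11a2*, *Tfrc*), store it (*Fth1*, *Ftl1*), export it (*Slc40a1*, *Heph*) or regulate these steps (*Aco1*, *Ireb2*, *Epas1*). RNA-seq was carried out on tissue labelled as proximal intestine from 5 mice labelled as knockouts of the metal transporter Zip14 (*Slc39a14*) and 5 wild-type mice, with 1 library per mouse. The markers of the KO libraries went against the labelled region, as given below. The labels name the groups only KO and WT, at an age of 8 to 10 weeks. The study describes the sequenced knockout as a whole-body deletion from crosses of heterozygous mice, with WT mice of the same strain as controls, whereas the title of the series names a deletion in enterocytes. Sections of whole intestine hold muscle and other cells beside the epithelium, and the sex of single mice was not given.

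In the duodenum, the reductase that *Cybrd1* encodes turns ferric into ferrous iron at the brush border. DMT1, the product of *Slc11a2*, then carries ferrous iron into the enterocyte, where ferritin, built of *Fth1* heavy and *Ftl1* light chains, stores it. Ferroportin (*Slc40a1*) exports iron into the blood and hephaestin (*Heph*) oxidises it on the way, while *Tfrc* encodes the transferrin receptor, through which cells take iron from the blood side. The iron regulatory proteins, encoded by *Aco1* and *Ireb2*, bind a hairpin in messenger RNAs called the iron-responsive element (IRE) when iron is low. Bound to a 5′ untranslated region (UTR), they hold back translation, and bound to a 3′ UTR, they protect the message from decay. HIF-2α, the product of *Epas1*, is known to drive transcription of the uptake and export genes in the intestine. Zip14 itself transports zinc, iron and manganese.

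The IRE letters are shown because the hairpin is the part of a message that iron regulatory proteins are known to bind, although binding was not measured here. UTRs of coding transcripts of GENCODE M21 (GRCm38) were searched on the transcript strand for an unpaired C, a stem of 5 bases, the loop CAGTGN and a stem that pairs with the first, above a lower stem with at least 4 of 5 pairs. G-T pairs and 1 skipped base on the 3′ side were allowed. A match was found in 6 of the 10 genes at 9 sites, which are given below in DNA letters with the loop in capitals.
Fth1, 5′ UTR: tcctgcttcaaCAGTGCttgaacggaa
Ftl1, 5′ UTR: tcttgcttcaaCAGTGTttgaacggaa
Slc40a1, 5′ UTR: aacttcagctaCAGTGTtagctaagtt
Epas1, 5′ UTR: acaatcctcggCAGTGTcctgagactgt
Slc11a2, 3′ UTR: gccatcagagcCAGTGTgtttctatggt
Tfrc, 3′ UTR, first site: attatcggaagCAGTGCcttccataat
Tfrc, 3′ UTR, next site: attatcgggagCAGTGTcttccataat
Tfrc, 3′ UTR, site after it: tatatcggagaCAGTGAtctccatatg
Tfrc, 3′ UTR, last site: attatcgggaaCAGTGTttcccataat

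The sites in 5′ UTRs lie at chr19:9982733-9982759 on the plus strand (*Fth1*), chr7:45459780-45459806 on the minus strand (*Ftl1*), chr1:45925466-45925492 on the minus strand (*Slc40a1*) and chr17:86753769-86753796 on the plus strand (*Epas1*). That of *Slc11a2* lies at chr15:100395153-100395180 on the minus strand, and the 4 sites of *Tfrc* fall between 32631220 and 32631737 on the plus strand of chromosome 16. The *Ftl1* site differs from the *Fth1* site at 2 of 27 bases, C3T and C17T, with positions counted from 1 at the 5′ end of the site. In *Slc11a2*, *Ftl1* and *Tfrc*, 1 of 2 complete coding transcripts holds the sites, and the counts per gene do not separate these transcripts. Among all genes with an annotated UTR, 0.0479% hold a match in the 5′ UTR and 0.138% in the 3′ UTR. No match was found for *Cybrd1*, *Heph*, *Aco1* or *Ireb2*, which says only that these letters are not in their annotated UTRs.

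The depth was similar in both groups, with 16729787 to 20819678 counts per WT library and 17118742 to 19414828 per KO library. *Slc39a14* had 191 to 357 CPM in WT mice and 78.5 to 160 CPM in KO mice, with KO 1 the highest of its group. Its log2 fold change was -1.35, and counts per gene do not show which exons the remaining reads cover. CPM, the usual unit of counts relative to the total of a library, stands throughout for values scaled by the trimmed mean of M values (TMM). The libraries labelled KO had far less of the markers of proximal intestine than the WT libraries, and more of ileal ones. *Fabp6*, which binds bile acids in ileal cells, had 0.0638 to 1.74 CPM in WT mice and 2307 to 9058 CPM in KO mice, and *Gata4*, a factor of proximal enterocytes, had 160 to 217 CPM in WT and 0.572 to 59.4 CPM in KO mice. Position along the gut and genotype therefore cannot be told apart in any comparison below.

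KO 1 stood apart within its group in *Gata4*, with 59.4 CPM against at most 13.8 CPM in the other KO libraries. *Lct*, *Apoa4* and *Slc2a5* were also highest in KO 1 (702, 493 and 98.6 CPM), with KO 2 next (281, 351 and 53.8 CPM). Other regional genes did not set KO 1 apart. *Fabp1* was highest in KO 2, at 125 CPM against 50.8 CPM in KO 1, and *Fabp6* lowest there, at 2307 against 3295 CPM. In KO mice *Pdx1* was highest in KO 4, at 0.572 CPM. *Pdx1*, a factor of the duodenum, had 14.7 CPM in WT 2, 6.24 CPM in WT 3 and 1.142 CPM in WT 1, but 0.220 and 0.168 CPM in WT 4 and WT 5.

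All 10 iron genes passed the filter on low counts, with between 58 and 44455 counts in a library. By edgeR's quasi-likelihood test, 3 of the 10 fell in KO mice at an adjusted p under 0.05, namely *Aco1*, *Ireb2* and *Fth1*, and none rose. Over all 15610 genes tested, 29.9% were called, with 13.9% lower and 16.0% higher. Higher genes were 53.5% of all calls, but 69.4% when scaled by library size only and 10.6% when scaled to epithelial genes. At an unadjusted p under 0.05 in edgeR, none of the 10 was higher and 6 were lower, and the share of all genes at that threshold is not given here. DESeq2 called none higher and 4 lower. The log2 fold change was below 0 in 9 of the 10, with a median of -0.44, beside a median of 0.03 over all genes tested. Without TMM scaling, the sign of *Ftl1* turned and 8 were below 0. In 2 of the 10, *Aco1* and *Ireb2*, all KO libraries lay below all WT libraries, as did those of 10.8% of all genes tested. No iron gene had all KO libraries above all WT libraries, which 10.2% of all genes did, and 21.1% did not overlap in either direction.

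**Figure D1:**
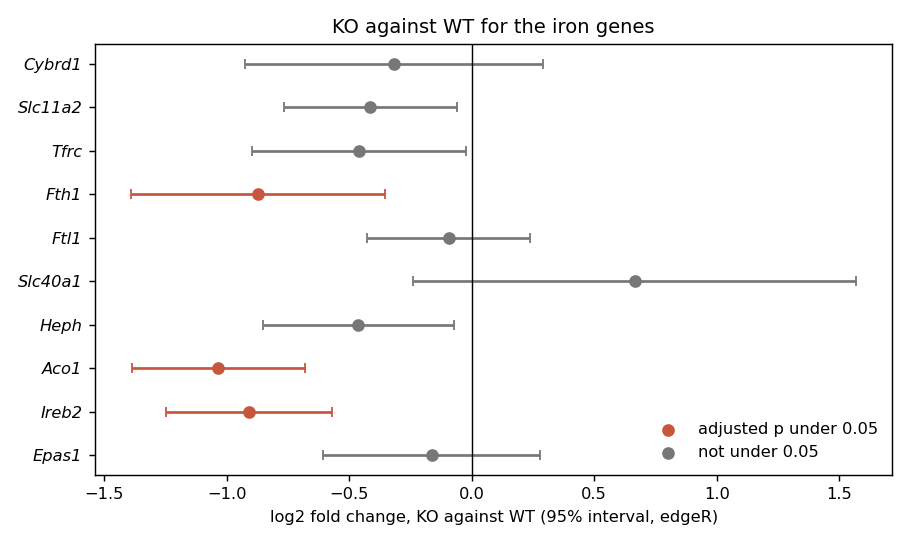
Log2 fold change of KO against WT mice for the 10 iron genes, with 95% intervals that are not adjusted for the number of genes. *Aco1*, *Ireb2* and *Fth1*, in red, had an adjusted p under 0.05, and only *Slc40a1* lay above 0.

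*Aco1* encodes iron regulatory protein 1, which acts as cytosolic aconitase when it holds an iron-sulfur cluster. It had 353, 384, 397, 280.0 and 317 CPM in WT mice 1 to 5 and 237, 167, 147, 137 and 158 CPM in KO mice 1 to 5. Every KO library was below every WT library, and KO 1 was nearest to the WT mice. The fall was from 346 ± 48.0 to 169 ± 39.5 CPM (SD, n = 5 each), to 48.8% of the WT level, with a log2 fold change of -1.04 (standard error, SE, 0.16, edgeR adjusted p = 0.00151). Without KO 1 it was -1.19. The gene (ENSMUSG00000028405) is at chr4:40143081-40198338, plus strand.

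*Ireb2* encodes iron regulatory protein 2, which lacks the enzyme activity and is removed by degradation when iron is plentiful. Its level was 140, 166, 117, 102 and 128 CPM in WT mice 1 to 5 and 80.4, 81.3, 72.4, 56.0 and 57.0 CPM in KO mice 1 to 5. Again the groups did not overlap, although here KO 1 was not set apart from the rest. The mean fell from 130 ± 24.1 to 69.4 ± 12.3 CPM (SD, n = 5 each), to 53.2% of WT, a log2 fold change of -0.91 (SE 0.15, edgeR adjusted p = 0.00222). Without KO 1 the value was -0.97. *Ireb2* (ENSMUSG00000032293) is at chr9:54863789-54912530, plus strand.

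The ratio of *Aco1* to *Ireb2* counts within a library was 2.32 to 3.39 in WT mice and 2.03 to 2.94 in KO mice. The groups overlapped, and the mean log2 ratio differed by -0.14 (exact permutation test, two-sided, p = 0.373), in a comparison chosen after the values were seen. *Fbxl5*, which encodes the ubiquitin ligase subunit that senses iron and removes iron regulatory protein 2, was measured among the other iron genes. It fell from 116 ± 7.96 to 75.3 ± 6.35 CPM (SD, n = 5 each), which was a log2 fold change of -0.62 (SE 0.08, edgeR adjusted p = 8.01e-04).

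*Epas1*, which encodes HIF-2α, did not pass the test. It ranged from 83.1 to 135 CPM in WT mice and from 65.2 to 114 CPM in KO mice, with KO 1 and KO 5 both at the low end and below every WT library. The log2 fold change was -0.16 (edgeR adjusted p = 0.562), with a 95% interval from -0.61 to 0.28, and it lay between -0.26 without KO 3 and -0.05 without WT 2. It lies on chromosome 17 from 86753700 to 86833410.

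The ferritin chains differed from each other. *Fth1*, the heavy chain that oxidises iron for storage, had 1958, 2836, 2535, 1247 and 1351 CPM in WT mice 1 to 5. In KO mice 1 to 5 it had 944, 1175, 958, 1304 and 1039.5 CPM. WT 2 and WT 3 were the highest, and KO 4 was above WT 4, so that 4 of 5 KO libraries were below all WT libraries. *Fth1* fell from 1985 ± 703 to 1084 ± 153 CPM (SD, n = 5 each), to 54.6% of WT, with a log2 fold change of -0.87 (SE 0.24, edgeR adjusted p = 0.0185). It was -0.71 without WT 2 and -0.83 without KO 1. *Fth1* (ENSMUSG00000024661) lies on chromosome 19 from 9980598 to 9985098.

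*Ftl1*, the light chain that helps to form the iron core, had 1412, 1329, 1421, 1041 and 1127 CPM in WT mice 1 to 5. In KO mice 1 to 5 it had 1073, 1164, 1055, 1555 and 1079.6 CPM. The groups overlapped, and KO 4 was above every WT library. KO against WT gave a log2 fold change of -0.09 (SE 0.15, edgeR adjusted p = 0.659), with a 95% interval from -0.43 to 0.24, and it lay between -0.21 without KO 4 and -0.05 without WT 3. *Ftl1* (ENSMUSG00000050708, chromosome 7 from 45457944 to 45459884) has a near-identical copy, *Ftl1-ps1*, to which 576 counts were given in WT mice and 532 in KO mice against 111458 and 114001 for *Ftl1* itself. How reads matching both were counted is not known.

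The ratio of *Fth1* to *Ftl1* counts within each library is not changed by any scaling. It was 1.39, 2.13, 1.78, 1.20 and 1.20 in WT mice 1 to 5 and 0.880, 1.01, 0.908, 0.838 and 0.963 in KO mice 1 to 5. Each KO library was below each WT library, and the KO values lay close together. The mean ratio was 1.54 ± 0.409 in WT and 0.920 ± 0.0676 in KO mice (SD, n = 5 each), and the mean log2 ratio differed by -0.71 (exact permutation test, two-sided, p = 0.00794, the smallest that 5 against 5 can give). The ratio was chosen for a test after the values of both genes were seen. With 1 mouse left out, the difference was between -0.79 and -0.58.

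**Figure D2:**
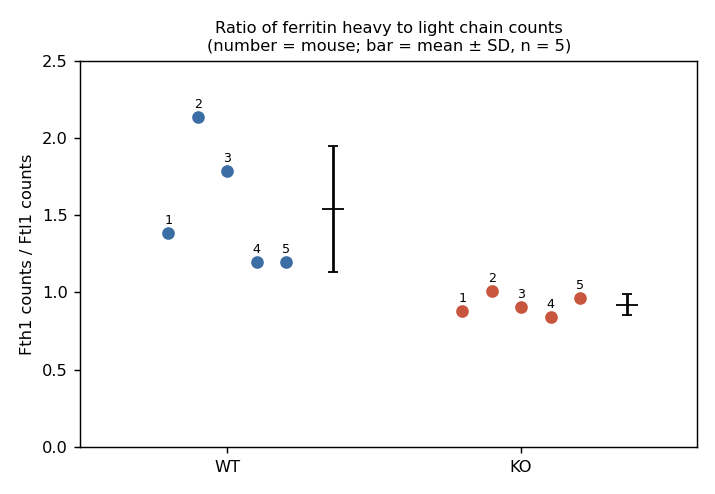
Counts of *Fth1* divided by counts of *Ftl1* in each library, with numbers for the mice and bars for mean ± SD (n = 5). The WT libraries sit between 1.20 and 2.13 and the KO libraries between 0.838 and 1.01.

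None of the uptake genes passed the test. *Slc11a2* had 66.7, 84.2, 87.0, 55.3 and 54.0 CPM in WT mice 1 to 5 and 61.2, 42.6, 45.2, 53.4 and 58.1 CPM in KO mice 1 to 5. KO 1 and KO 5 lay within the WT range and the other KO libraries below it. This was a log2 fold change of -0.41 (SE 0.16, edgeR adjusted p = 0.0721), with a 95% interval from -0.77 to -0.06 before adjustment. Without WT 4, WT 5 or KO 1, left out 1 at a time, the adjusted p was 0.0474, 0.0454 and 0.0496. *Slc11a2* (ENSMUSG00000023030) is at chr15:100387898-100425072, minus strand, and 402 bases of its exons overlap *Gm5475* on the other strand, while the handling of strand in counting is not known.

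*Cybrd1* was low in every mouse, with 8.25, 9.31, 10.7, 7.91 and 11.4 CPM in WT mice 1 to 5 and 10.6, 9.44, 8.04, 7.01 and 3.04 CPM in KO mice 1 to 5. KO 5 was the lowest, and KO 1 to KO 3 lay within the WT range. Between the groups the log2 fold change was -0.32 (SE 0.28, edgeR adjusted p = 0.401), with a 95% interval from -0.93 to 0.29, and it was -0.12 without KO 5. The gene (ENSMUSG00000027015) lies on chromosome 2 from 71117923 to 71142926.

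*Tfrc*, through which dividing and iron-poor cells take up transferrin, had 196, 209, 164, 124 and 142 CPM in WT mice 1 to 5 and 154, 115, 98.4, 84.4 and 155 CPM in KO mice 1 to 5. KO 1 and KO 5 were within the WT range. Its log2 fold change was -0.46 (SE 0.20, edgeR adjusted p = 0.0983), with a 95% interval from -0.90 to -0.02. Genes of dividing cells, measured beside it, did not pass the test in any of 8 cases by edgeR or DESeq2, and the lowest unadjusted p was 0.0687 (*Pcna*, edgeR), while scaling to epithelial genes gave 4 lower. Their summed level was 484 to 578 CPM in WT mice and 339 to 649 CPM in KO mice, and its part in the *Tfrc* values was not tested. *Tfrc* (ENSMUSG00000022797) lies on chromosome 16 from 32608920 to 32632794.

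Of the export genes, *Slc40a1* varied most between mice. It had 21.3, 38.7, 19.7, 11.8 and 11.4 CPM in WT mice 1 to 5 and 25.0, 21.7, 16.6, 35.8 and 63.8 CPM in KO mice 1 to 5. KO 5 alone was above the WT range, and WT 4 and WT 5 were the lowest of all. The coefficient of variation was 53.8% in WT and 57.8% in KO mice, more than that of any of the other 9 genes. KO against WT gave 0.66 on the log2 scale (SE 0.41, edgeR adjusted p = 0.236), with a 95% interval from -0.24 to 1.57, and it was 0.27 without KO 5 and 1.02 without WT 2. Macrophages also use ferroportin to release iron. Of 9 macrophage genes tested, 2 fell and none rose. The lower ones were 0 without WT 3 or without KO 3, 1 without WT 1, WT 2, KO 4 or KO 5 or with the replicate block, and 4 when scaled to epithelial genes, and 1 gene was higher without WT 4, without KO 5 or with library size only. Their summed level was 269 to 377 CPM in WT and 199.97 to 353 CPM in KO mice, with *Marco* at 0 in most libraries. Their part in the *Slc40a1* values was not tested. *Slc40a1* (ENSMUSG00000025993) is at chr1:45908068-45926523, minus strand.

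*Heph* had 337, 339.6, 266, 257 and 310.0 CPM in WT mice 1 to 5 and 283, 251, 189, 140.3 and 231 CPM in KO mice 1 to 5. KO 1 was within the WT range and the other 4 were below it. Its change on the log2 scale was -0.46 (SE 0.18, edgeR adjusted p = 0.0695), with a 95% interval from -0.85 to -0.07. DESeq2 gave an adjusted p of 0.0475, and edgeR without KO 1 gave 0.0274. The gene (ENSMUSG00000031209) lies on chromosome X from 96455359 to 96574485.

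**Figure D3:**
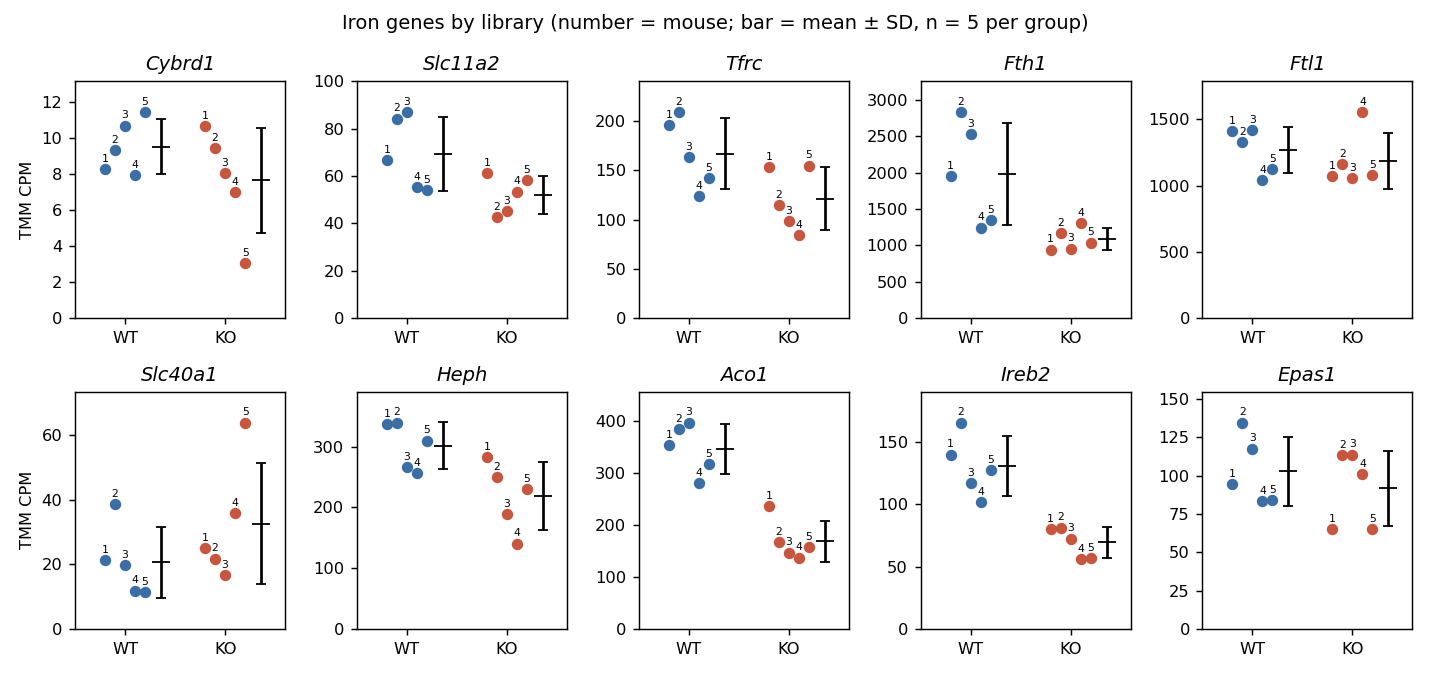
TMM CPM of the 10 iron genes in each library, with the mouse numbers beside the points and bars for mean ± SD (n = 5 per group). The KO libraries of *Aco1* and *Ireb2* lie below all WT libraries, those of *Fth1* overlap at KO 4, and *Slc40a1* spreads from 11.4 to 63.8 CPM.

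Set beside the IRE sites, the genes with a site in the 5′ UTR had log2 fold changes of -0.87 (*Fth1*), -0.09 (*Ftl1*), -0.16 (*Epas1*) and 0.66 (*Slc40a1*). Those with sites in the 3′ UTR had -0.41 (*Slc11a2*) and -0.46 (*Tfrc*). The genes without a match had -1.04 (*Aco1*), -0.91 (*Ireb2*), -0.46 (*Heph*) and -0.32 (*Cybrd1*). Of the called genes, only *Fth1* holds a match, and translation, which a 5′ site controls, was not measured here.

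Levels were compared between genes as CPM per kilobase of annotated exons. In WT mice the order was *Ftl1* (945 ± 129 CPM per kilobase, SD, n = 5), *Fth1* (572 ± 203), *Aco1* (77.0 ± 10.7), *Heph* (39.4 ± 5.07), *Tfrc* (27.0 ± 5.78), *Epas1* (18.4 ± 4.04), *Ireb2* (13.8 ± 2.54), *Slc11a2* (10.9 ± 2.45), *Slc40a1* (2.29 ± 1.23) and *Cybrd1* (1.78 ± 0.284). The ferritin chains overlapped over the WT libraries, as did each neighbouring pair from *Heph* to *Slc11a2*, and *Slc40a1* overlapped *Cybrd1*. *Aco1* stood clear of *Fth1* above it and *Heph* below it, and *Slc40a1* stood clear of *Slc11a2*. The order in KO mice was the same except that *Slc11a2* (8.20) and *Ireb2* (7.33) changed places. With the length of the longest transcript, *Ireb2* came before *Epas1* in WT mice, while in KO mice *Ireb2* (12.03) came before *Slc11a2* (11.8) and *Heph* (46.2) before *Aco1* (44.1).

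The WT mice differed among themselves. WT 2 had the highest level of its group in 6 of the 10 genes, and WT 3 in 3. WT 4 was the lowest of its group in 8 of the 10 and WT 5 in the other 2. WT 2 and WT 3 were also the libraries with the most *Pdx1*. In KO mice, KO 1 was highest in 4 genes and KO 4 lowest in 4.

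**Figure D4:**
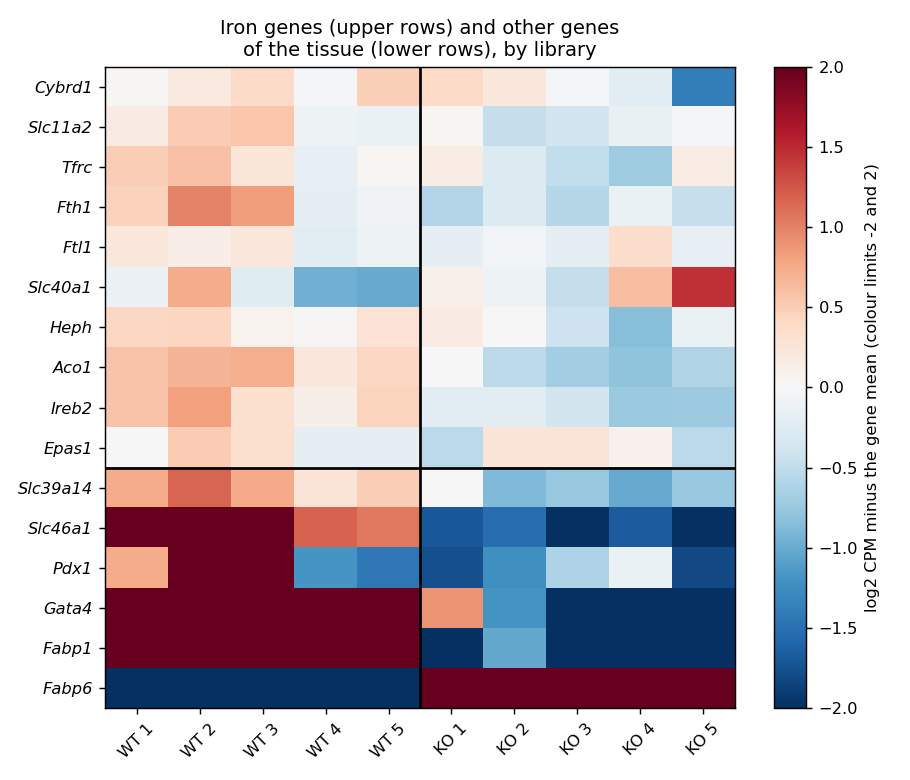
Log2 CPM of each gene minus its mean over the 10 libraries, with colours ending at -2 and 2. *Aco1* and *Ireb2* are higher in every WT than in every KO library, as are *Slc39a14*, *Slc46a1* and the proximal genes *Gata4* and *Fabp1*. *Fabp6* goes the other way. *Slc40a1* is highest in KO 5 and *Cybrd1* lowest there.

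The genes with the most similar profile were taken by the smallest root mean square difference of centred log2 CPM over the 10 libraries. For *Aco1* these were *Cyb5b* (0.10) and *Ogdh* (0.10), a subunit of a citric acid cycle enzyme. *Tab3* (0.09) and *Dennd1b* (0.10) were nearest to *Ireb2*, and *Abca2* (0.12) and *Miga2* (0.13) to *Fth1*. For *Slc11a2* they were *Cpt2* (0.12), an enzyme of fatty acid oxidation, and *Tepsin* (0.12). The nearest to *Cybrd1* were *Stard9* (0.20) and *Sema5b* (0.21), and to *Slc40a1* *Gm12251* (0.37) and *Ifi205* (0.38). For scale, the SD of log2 CPM over the 10 libraries was 0.34 for *Slc11a2*, 0.54 for *Cybrd1* and *Ireb2*, 0.57 for *Fth1*, 0.61 for *Aco1* and 0.77 for *Slc40a1*.

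Marker genes of other cell kinds and gut positions also differed between the groups. All 10 smooth muscle genes rose, with a summed level of 1220.2 to 2182 CPM in WT and 3276 to 9979 CPM in KO mice. Of the 8 epithelial genes, 5 rose and none fell, or 3 rose and 2 fell when scaled to these genes themselves. The higher ones were 3 without WT 1, WT 2, WT 3, KO 4 or KO 5 or with no filter on low counts, and 1 was lower without KO 1. Their sum was 10370.5 to 12564 CPM in WT and 13184 to 18625 CPM in KO mice. Of 10 enterocyte genes, 5 fell and none rose, or 9 fell when scaled to epithelial genes, with sums of 33159.7 to 41346 CPM in WT and 17579 to 35645 CPM in KO mice. Ileal genes rose in 6 of 7 cases (939.6 to 1497 CPM in WT, 4288 to 12858 CPM in KO mice) and genes of the proximal intestine fell in 4 of 5 tested (8597 to 15453 CPM in WT, 57.5 to 1403 CPM in KO mice). In bulk tissue, fewer cells of a type and less RNA per cell cannot be told apart. The part of these shifts in the iron genes was not tested.

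In the other lists of iron, heme and hypoxia genes, 72 of 81 genes were tested, and 10 rose and 16 fell, with a median log2 fold change of -0.06. With library size only, 13 of them were higher and 11 lower, and scaled to epithelial genes, 6 were higher and 35 lower. Among 20 other genes of iron transport and storage, 5 rose and 3 fell. The higher ones were 2 without WT 2 or without WT 3 and 3 without WT 1, WT 4 or KO 2, and scaling to epithelial genes gave 2 higher and 8 lower. *Steap4* and *Steap3* encode ferric reductases, like *Cybrd1* in function. *Steap4* had 0.702 to 3.85 CPM in WT mice and 3.83 to 22.5 CPM in KO mice, with a log2 fold change of 2.47 (SE 0.60, edgeR adjusted p = 0.0120), and *Steap3* had 10.5 to 14.2 CPM in WT and 17.4 to 28.1 CPM in KO mice, with a log2 fold change of 0.95. *Steap1* rose by a log2 fold change of 1.04, at 0.605 to 1.66 CPM in WT and 1.41 to 2.78 CPM in KO mice. *Steap2*, of the same family, had a log2 fold change of 0.12 and did not pass the test (edgeR adjusted p = 0.579). *Pcbp1*, a chaperone that hands iron to ferritin, had 260.5 ± 22.4 CPM in WT and 223 ± 31.5 CPM in KO mice (SD, n = 5 each) and did not pass the test. *Hamp*, which encodes the iron hormone hepcidin of the liver, had 5 counts in all WT mice together and 25 in all KO mice, of which 13 were in KO 4, too few for the test.

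Heme is the other source of dietary iron. Of 18 heme genes, 2 rose and 6 fell, or 10 fell when scaled to epithelial genes. *Slc46a1*, a carrier of folate in the proximal intestine that was also described as a heme carrier, had 211, 388, 335, 109 and 101 CPM in WT mice 1 to 5 and 14.7, 16.7, 9.07, 15.1 and 6.40 CPM in KO mice 1 to 5. Every KO library was far below every WT library, a log2 fold change of -4.21 (SE 0.45, edgeR adjusted p = 2.52e-04). *Cpox*, an enzyme of heme synthesis, fell from 68.5 ± 11.4 to 26.3 ± 7.81 CPM (SD, n = 5 each), which was a log2 fold change of -1.38, and *Flvcr1*, a heme exporter, fell by 0.95 on the log2 scale. *Abcg2*, a pump that exports porphyrins among other substrates, rose by a log2 fold change of 0.95, and *Slc48a1*, a heme transporter of endosomes, rose by 0.88. *Hmox1*, the inducible heme oxygenase that frees iron from heme, had 3.28 ± 0.585 CPM in WT and 3.38 ± 0.994 CPM in KO mice (SD, n = 5 each) and did not pass the test.

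In the list of mitochondrial iron and iron-sulfur cluster genes, 4 of 15 fell and none rose by edgeR, at an adjusted or an unadjusted p under 0.05, or by DESeq2, but 1 was called higher when scaled by library size only and 7 lower when scaled to epithelial genes. *Slc25a28*, an iron importer of mitochondria, fell by 0.63 on the log2 scale (edgeR adjusted p = 0.00267). *Slc25a37*, the other iron importer, had 137 ± 25.6 CPM in WT and 132 ± 22.9 CPM in KO mice (SD, n = 5 each) and did not pass the test.

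Regulators of the hypoxia factors and genes known to rise in hypoxia were mixed. Of 9 regulators, 1 rose and 1 fell with TMM scaling, 2 rose and none fell with library size only, and none rose and 4 fell when scaled to epithelial genes. None was higher with RLE normalization, DESeq2, no filter on low counts or the replicate block, or without any 1 mouse other than KO 1 or KO 5. None was lower without WT 1, WT 2, WT 3, WT 5, KO 4 or KO 5, and 2 were lower with RLE normalization, with DESeq2 or without KO 2. *Hif1a*, the counterpart of *Epas1*, fell by 0.73 on the log2 scale (edgeR adjusted p = 0.0407), and *Egln1*, which encodes a hydroxylase that marks both factors for removal, rose by a log2 fold change of 0.25 (edgeR adjusted p = 0.0491). Among 10 hypoxia-responsive genes, 2 rose and 2 fell. The lower ones were 0 without WT 2 or without WT 3, 1 without WT 5, KO 2 or KO 3, with library size only or with the replicate block, and 6 when scaled to epithelial genes. *Adm* and *Slc2a1* rose by log2 fold changes of 1.63 and 1.298, while *Car9* and *Vegfa* fell by 0.68 and 0.45 on the log2 scale. *Ldha* and *Pgk1*, the most abundant of the list, had log2 fold changes of -0.27 and -0.31 that did not pass the test.

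**Figure D5:**
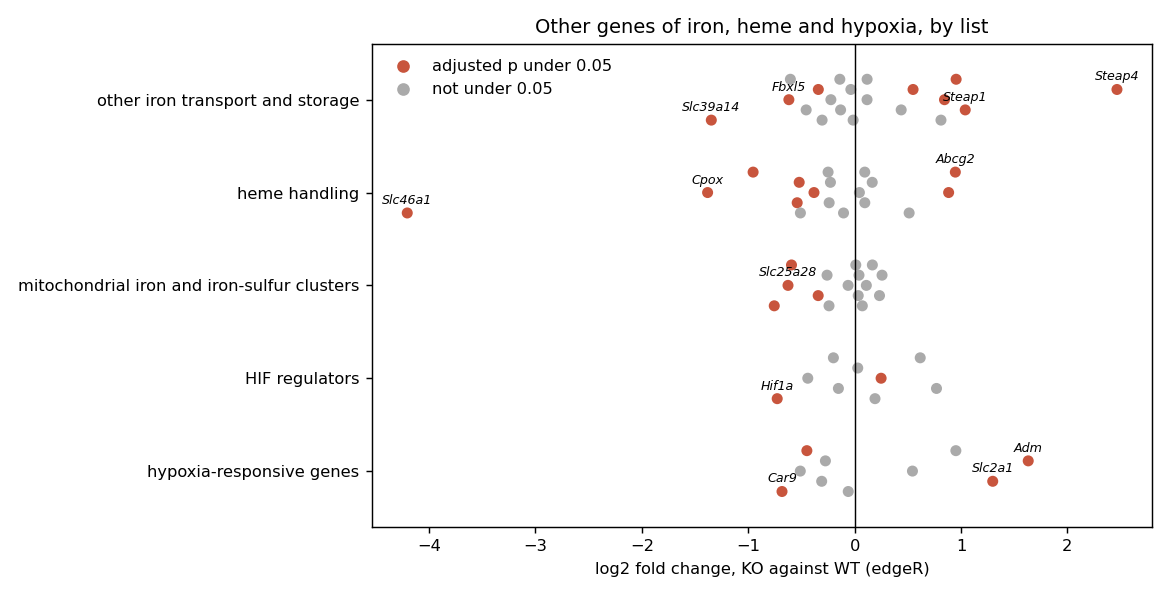
Log2 fold change of KO against WT mice for each tested gene of 5 lists, with genes of an adjusted p under 0.05 in red. *Slc46a1* lies farthest to the left at -4.21 and *Steap4* farthest to the right at 2.47.

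Red cells carry much of the iron of a tissue sample, and the summed levels of their genes overlapped between the groups. Of 5 tested, 1 rose, and none did without any 1 of the WT mice. Their sum was 40.4 to 99.9 CPM in WT and 26.6 to 126 CPM in KO mice. Genes of the pancreas summed to 50.4 to 136 CPM in WT and 49.997 to 293 CPM in KO mice. Nearly all of this was *Clps*, with 50.1 to 135 CPM in WT and 48.1 to 292 CPM in KO mice. *Ctrb1* had at most 3.32 CPM in WT and 10.1 CPM in KO mice. Neither *Ctrb1* nor *Clps*, the 2 tested, had an unadjusted p under 0.05 in edgeR or was called by DESeq2.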

How the data were processed

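RNA-seq libraries of single mice were made with a SMARTER mRNA-Seq kit, and for each library the authors deposited a count of reads for every Ensembl gene ID, without normalization. The submitters' processing notes list FastQC 0.11.9, Trimmomatic, HISAT2 2.0.4, SAMtools 1.3.1 and DESeq2 1.14.1 with GRCm38. Not given in the sources used here are the read counter, the annotation and the handling of strand and of reads with several matches. Symbols, positions and sequences came from GENCODE M21 (GRCm38), with a symbol for 34490 of 35275 IDs. Totals were 16729787 to 20819678 counts per library. Counting error weighs most on *Cybrd1*, with 58 counts in its lowest library, and a count of 0 allows up to 3 counts.

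R 4.3.3 was used with edgeR 4.0.16 (quasi-likelihood test on genotype, all 10 libraries, TMM, filterByExpr with a minimum count of 10 and total of 15, Benjamini-Hochberg adjustment over 15610 genes, threshold 0.05). Alternatives were DESeq2 1.42.0, RLE normalization in edgeR, scaling by library size only or to 8 epithelial genes, no filter on low counts, the replicate number as a block and leaving out each mouse. CPM refer to the TMM-scaled total of the tested genes, and log2 CPM has a prior count of 2. The standard error is the log2 fold change divided by the root of the F statistic. Exact permutation tests ran over all 252 splits into 5 and 5. Replicates differed by more than sampling noise, with a chi-square of at least 15.8 per gene. On simulated counts of 15263 genes, edgeR recovered 65 of 98 changes of 1 and 93 of 100 changes of 2 on the log2 scale, with 3 false calls among 161.

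The genes, lists and tests were chosen with earlier results of these data known. Genes named are the 10, *Slc39a14*, the 3 most abundant of a list, pathway genes called beyond 1 on the log2 scale and the 2 genes of nearest profile. *Steap3*, *Slc48a1*, *Flvcr1*, *Slc25a28*, *Hif1a*, *Egln1*, *Car9*, *Hmox1*, *Hamp*, *Gata4*, *Pdx1*, *Marco*, *Pcna*, *Ctrb1* and *Clps* were named after their values were seen. The same holds for *Slc2a5* and *Steap2*. *Fdx2*, *Hjv* and *Ahsp* had no matching symbol and were not analysed here, and some genes that this rule names are not reported here.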

Additional observations from a re-analysis of the deposited data

Results flagged for a closer look

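Each gene was examined in each group of 5 for a library far from the others, which gave 20 cases, and chance alone is expected to mark about 1 in 20. One was marked. *Ftl1* had 1555 CPM in KO 4, while the other KO libraries had between 1055 and 1164 CPM, so that the gap took up 0.783 of the range of the group. KO 4 was also the library with the highest levels of smooth muscle genes (9979 CPM in sum), and the part of these in the *Ftl1* value was not tested.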

How the results depend on the processing

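*Aco1*, *Ireb2* and *Fth1* stayed lower at an adjusted p under 0.05 in all 16 alternatives, with log2 fold changes from -1.46 to -0.92, from -1.32 to -0.78 and from -1.29 to -0.71. *Slc40a1*, *Cybrd1*, *Ftl1* and *Epas1* passed in none. Scaled to 8 epithelial genes, which moved the median of all genes tested to -0.37, 6 of the 10 iron genes were lower, adding *Slc11a2* (-0.85), *Heph* (-0.89) and *Tfrc* (-0.91). Under that scaling 756 genes were higher and 6351 lower, and of the pathway lists 6 higher and 35 lower. With plain library totals as scale, which moved the median of all genes to 0.15, *Ftl1* turned to 0.0382. *Heph* passed with DESeq2 (-0.48). The cause of these shifts was not tested. The meaning of the replicate numbers in the titles is not given. Deviations of same-numbered libraries correlated between -0.17 and 0.18, and 2 of 10 libraries, WT 4 and KO 4, were closest to their own number. Such correlations cannot settle whether the numbers mark a pairing or a batch. With the replicate number as a block, 1950 genes were higher and 1898 lower, 4 of the 10 iron genes were lower, and *Heph* passed (-0.49). With each mouse left out in turn, 0 of the 10 were higher and 3 to 5 lower, the 5 without KO 1, where *Slc11a2* and *Heph* were added. Their ranges were -0.50 to -0.32 and -0.58 to -0.34. Over all genes 1634 to 2944 were higher, the fewest without WT 2, and 1573 to 2563 lower. Of the pathway lists 6 to 12 were higher, 6 without WT 2 or WT 3, and 9 to 15 lower, 9 without WT 2 and 10 without WT 3. Of 168 counts for single lists under the other alternatives, 27 moved by more than 1.5 times, 13 of them with epithelial scaling. With the longest transcript as length, 8 of 10 levels per kilobase rose by more than 1 SD. Depth limits *Cybrd1* most, at 58 counts in its lowest library.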
